A study of Homo sapiens with 12 samples.

Results

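The 10 genes described here form the YAP/TEAD axis and were chosen by symbol: the coactivators YAP1 and WWTR1 (which encodes TAZ), the DNA-binding partners TEAD1 and TEAD4, and the target or feedback genes CCN1, CCN2, ANKRD1, AMOTL2, LATS2 and AJUBA. All 10 were among the 15601 genes of the 12-library table, and each of the 6 tables over 2 groups listed all 10 as well. In SNU449 cells, the Rego-resistant population had more ANKRD1, CCN2 and CCN1 transcript than the control population. Between the corresponding SNU449-Axl- populations 0 of the 10 genes were called, where 4.35% of all genes were, and the test of the difference between backgrounds was passed by ANKRD1 and CCN2 but not by CCN1 (limma adjusted p = 0.0615). The ANKRD1 call in this test was lost in 2 of 12 fits that left out 1 library. ANKRD1 was also higher in SNU449-Axl- control cells than in SNU449 control cells. CCN2 was called there too (log2 difference 1.06, limma adjusted p = 0.0488), but the call was lost in 8 of 12 fits that left out 1 library. YAP1, WWTR1, TEAD1 and TEAD4 were not called in the Rego comparison of either background or between the control populations.

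YAP and TAZ lack a DNA-binding domain and act on genes through TEAD proteins. The Hippo kinases LATS1 and LATS2 phosphorylate both coactivators, which keeps them in the cytoplasm, so that the activity of the axis is set largely by protein location and less by the transcript level of YAP1 or WWTR1. CCN1 and CCN2 encode secreted matricellular proteins, ANKRD1 encodes a nuclear and sarcomeric ankyrin repeat protein, and these 3 transcripts are common readouts of the axis. AMOTL2 and LATS2 restrain YAP and are themselves induced by it, and AJUBA encodes a LIM protein that holds back LATS kinases. In the liver the pathway limits organ size, and AXL is known as one of its target genes.

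SNU449 is an established human hepatocellular carcinoma line. With and without Axl, a control and a Rego-resistant population were sequenced in 3 libraries each, which gives 4 groups. SNU449-Axl- is a derivative line in which AXL was knocked out by CRISPR/Cas9. The resistant populations had been exposed to regorafenib (Rego), a multikinase inhibitor, in steps of 50% of the IC50 up to 2 times the IC50, and were kept on the drug after each splitting, so that selection and the presence of the drug cannot be told apart. The libraries of a group are technical triplicates of 1 population. All SD, SE and p-values therefore cover the spread between libraries only, and a difference caused by Axl or Rego cannot be told apart from another difference between populations.

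The transcripts were measured by QuantSeq, which reads the 3′ ends of polyadenylated RNA. A library value is a whole number made by the authors as 2 to the power of a variance-stabilized, preparation-corrected level. It is not a count, its floor in the 12-library table is 12, and folds of weakly expressed genes are understated. Read counts per library are unknown here, and the sum of the mean normalized counts over genes was between 4.16e+06 and 4.91e+06 in the 8 tables. The median level over genes lay between 6.29 and 6.36 on the log2 scale in the 12 libraries. AXL had library values of 727, 941 and 715 in SNU449 control cells and 815 to 1271 in Rego-resistant SNU449 cells, against 33 to 53 in all 6 SNU449-Axl- libraries (limma log2 difference -4.29, adjusted p = 2.16e-09 in control cells; -4.52, adjusted p = 1.27e-09 in Rego-resistant cells). A 3′ tag reads the amount of AXL transcript and not the edited site. Of the hepatocyte markers, 3 of 9 were listed (APOA1, FGB and AFP), and ALB was not among the listed genes. Their summed values were 67 to 133 in the first 3 groups and 249 to 606 in Rego-resistant SNU449-Axl- cells. FGB alone had values of 189 to 547 in Rego-resistant SNU449-Axl- cells. All 5 mesenchymal markers were listed, with sums between 16054 and 29377, as were 2 of 5 epithelial markers (KRT8 and KRT18; sums of 826 to 2134) and 1 of 3 blood and endothelial markers (PTPRC, at values of 19 to 31).

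The sequences upstream of 3 target genes are shown because TEAD proteins bind the letters GGAATG, and because the 3 genes differed in how their transcripts behaved. Each is the 250 bases before the RefSeq transcription start on GRCh38.p14, read 5′ to 3′ on the strand of the gene. Capitals mark GGAATG on either strand (CATTCC where the match lies on the opposite strand) and, in ANKRD1, TGANTCA, where N is any base. This pattern is wider than the usual AP-1 site, in which N is C or G. The match in ANKRD1 has T at N and is therefore not that usual site.
CCN2, chr6:131951373-131951622, minus strand: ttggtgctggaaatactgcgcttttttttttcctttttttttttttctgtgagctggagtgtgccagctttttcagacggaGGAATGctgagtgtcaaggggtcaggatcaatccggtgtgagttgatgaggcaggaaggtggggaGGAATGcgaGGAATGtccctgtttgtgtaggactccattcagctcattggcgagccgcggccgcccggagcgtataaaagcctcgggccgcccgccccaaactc
ANKRD1, chr10:90921088-90921337, minus strand: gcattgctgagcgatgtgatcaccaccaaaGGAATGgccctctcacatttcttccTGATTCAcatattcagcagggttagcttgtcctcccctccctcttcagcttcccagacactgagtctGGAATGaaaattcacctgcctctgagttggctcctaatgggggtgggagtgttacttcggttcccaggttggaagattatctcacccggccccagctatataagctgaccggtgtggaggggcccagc
AMOTL2, chr3:134374448-134374697, minus strand: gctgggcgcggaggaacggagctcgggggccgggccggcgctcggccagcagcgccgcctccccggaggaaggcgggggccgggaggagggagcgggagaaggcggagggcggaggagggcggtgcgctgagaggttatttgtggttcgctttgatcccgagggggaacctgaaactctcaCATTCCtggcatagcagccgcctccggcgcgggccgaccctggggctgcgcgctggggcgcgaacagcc

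CCN2 held 3 copies of GGAATG, the closest pair at 104 to 99 and 95 to 90 bases before the start and the other at 169 to 164. ANKRD1 held 2 copies, at 220 to 215 and 128 to 123 bases, with the TGANTCA match at 195 to 189 between them. The AMOTL2 window shown had 1 copy on the opposite strand, at 69 to 64 bases, and its second RefSeq start had none. RefSeq windows were matched for 7 of the 10 genes. CCN1, TEAD1 and TEAD4 had no window, so that the letters upstream of CCN1 were not seen. Whether the number of copies goes with the transcript differences was not tested. YAP1 had 1 copy at 162 to 157 bases, AJUBA had 1 at 59 to 54 bases in 1 of its 2 windows, and the windows of WWTR1 and LATS2 had none. Among 35116 windows of this length, 11.9% held GGAATG at least once, 0.928% at least 2 times and 0.0797% at least 3 times, and 6.57% held TGANTCA. The 2 motifs share no bases in these windows. A match describes the letters only and is no evidence of binding in these cells.

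ANKRD1 (ENSG00000148677.7, GRCh38 chr10:90912096-90921087) had the widest range of group means among the 10 genes, 2.91 on the log2 scale. Its library values were 302, 367 and 105 in SNU449 control cells and 1268, 986 and 3912 in Rego-resistant SNU449 cells. In SNU449-Axl- cells they were 2040, 1079 and 1291 in control and 1197, 2398 and 1763 in Rego-resistant cells. The SNU449 control libraries were thus the lowest 3 of the 12, and the other 3 groups overlapped one another.

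CCN2 (ENSG00000118523.6, chr6:131948176-131951372), also known as CTGF, had values of 179, 206 and 72 in SNU449 control cells and 423, 467 and 625 in Rego-resistant SNU449 cells. The SNU449-Axl- control libraries stood between these groups at 303, 263 and 307, and the Rego-resistant SNU449-Axl- libraries had 192, 174 and 319. Every library of Rego-resistant SNU449 cells was above every other library for this gene. CCN1 (ENSG00000142871.18, chr1:85580761-85584589), also known as CYR61, had values of 1209, 1274 and 893 in SNU449 control cells and 1956, 2068 and 2565 in Rego-resistant SNU449 cells. Both SNU449-Axl- populations lay between these groups, with 1728, 1633 and 1665 in control and 1771, 1681 and 1898 in Rego-resistant cells.

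WWTR1 (ENSG00000018408.15, chr3:149517235-149736714) had values of 1046, 1197 and 910 in SNU449 control cells and 838, 746 and 692 in their Rego-resistant counterparts. Without Axl they were 1119, 1375 and 1469 in control and 1049, 839 and 1114 in resistant cells. In either background each resistant library was lower than each control library. YAP1 (ENSG00000137693.14, chr11:102110447-102233424) had 217, 224 and 234 in SNU449 control and 177, 179 and 170 in Rego-resistant SNU449 cells, the lowest 3 of its 12 libraries, against 211, 211 and 231 and 213, 203 and 188 in control and Rego-resistant SNU449-Axl- cells. The direction of the coactivator transcripts in SNU449 was therefore opposite to that of CCN1, CCN2 and ANKRD1, although neither coactivator passed the test.

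The other 5 genes moved little. TEAD1 (chr11:12674421-12944737) ranged from 414 to 599 over the 12 libraries, TEAD4 (chr12:2959330-3040676) from 132 to 181, and LATS2 (chr13:20973036-21061586) from 154 to 224. AMOTL2 (chr3:134355347-134375479) ranged from 330 to 612 and AJUBA (chr14:22971177-22982551) from 211 to 456. For these 5 genes the libraries of SNU449 control and Rego-resistant SNU449 cells overlapped.

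**Figure D1:**
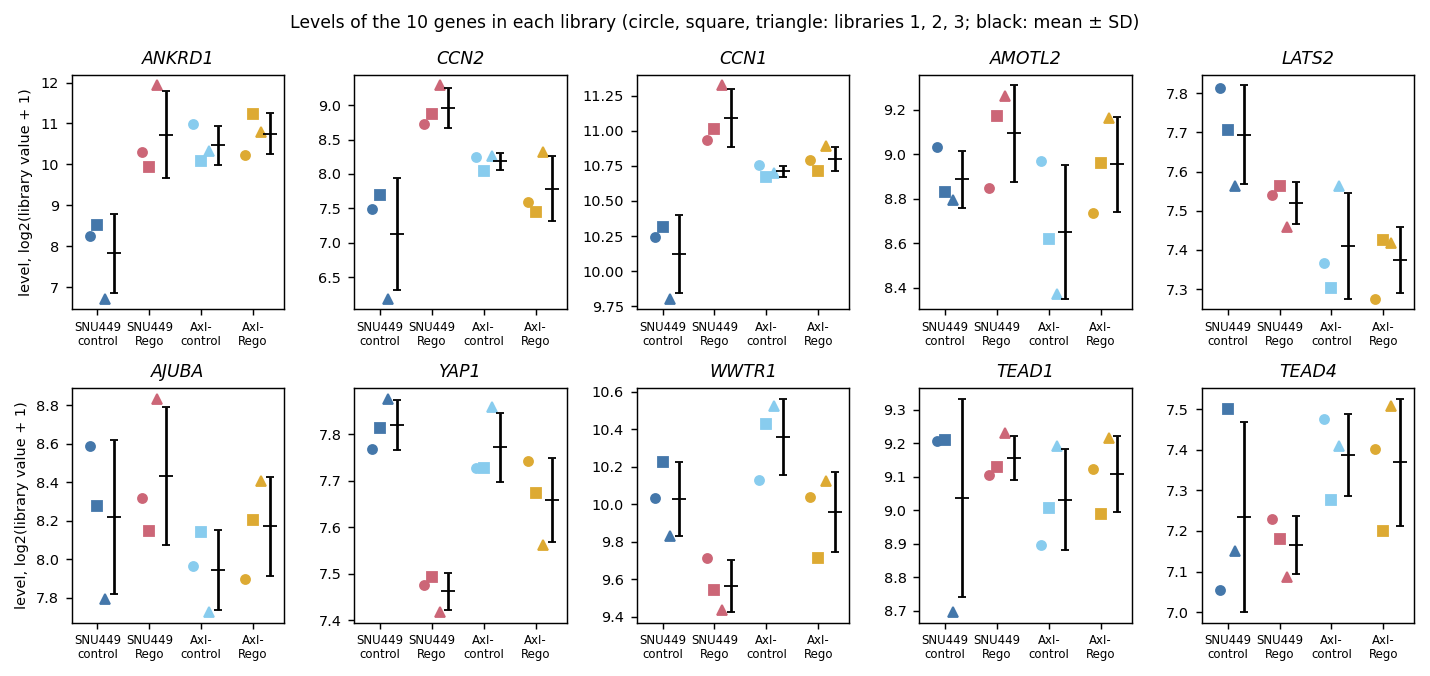
Level of each of the 10 genes, as log2(library value + 1), in the 3 libraries of each group, with the mean and SD in black; each panel has its own vertical scale. The SNU449 control libraries are the lowest 3 for ANKRD1 and CCN1, control library 3 (triangle) is the lowest of all for ANKRD1, CCN2 and CCN1, and TEAD1 and TEAD4 overlap between control and Rego-resistant SNU449 cells.

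The first comparison asked how the axis differed between Rego-resistant and control SNU449 cells. Of the 10 genes, 3 were called, all higher in resistant cells, where 7.81% of all genes were called and 4.31% were called higher. ANKRD1 was 7.46-fold higher (log2 difference 2.90, SE 0.461, adjusted p = 0.000574), CCN2 was 3.57-fold higher (1.84, SE 0.317, adjusted p = 0.00113) and CCN1 was 1.96-fold higher (0.97, SE 0.190, adjusted p = 0.00329; limma with the replicate number as a block and Benjamini-Hochberg adjustment over all genes, as for all adjusted p-values). The libraries of the groups did not overlap for 5 of the 10 genes, which held for 27.9% of all genes. These were the 3 called genes, WWTR1 (-0.47, 95% interval -0.87 to -0.06, adjusted p = 0.165) and YAP1 (-0.36, adjusted p = 0.242). AMOTL2 (0.21, 95% interval -0.22 to 0.64), AJUBA (0.21, -0.29 to 0.72) and LATS2 (-0.17, -0.55 to 0.20), which are further targets or regulators, were not called. TEAD1 (0.12, 95% interval -0.28 to 0.52) and TEAD4 (-0.07, -0.47 to 0.33) had intervals that include no difference. Because RNA was taken from whole cultures, more expressing cells and more RNA per cell cannot be told apart. Of the 5 mesenchymal markers, FN1, which encodes fibronectin, was lower in the same resistant cells (log2 difference -2.24, adjusted p = 0.000686), and the other 4 were not called (-0.71 to 0.38). None of the listed hepatocyte and epithelial markers was called, and the part of FN1 in the result was not tested.

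The size of these differences rested in part on the libraries numbered 3. Within the replicate numbers 1, 2 and 3, ANKRD1 differed by 2.07, 1.42 and 5.21, CCN2 by 1.24, 1.18 and 3.10, and CCN1 by 0.69, 0.70 and 1.52 on the log2 scale. All 9 differences were positive, as they must be where groups do not overlap. Those of number 3 were the largest for each gene. The preparation correction ties same-numbered libraries, so that a library standing apart also shifts the others of its number. All 3 genes were still called with any 1 library left out, although the remaining values had been corrected with that library included. Without SNU449 control library 3 the log2 difference of ANKRD1 was 2.16 and that of CCN2 was 1.21, and without Rego-resistant library 3 that of ANKRD1 was 2.10.

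On the scale of mean normalized counts, which were solved for each group from the authors' means of the 8 tables and carry no replicate error, ANKRD1 had 182 in control and 2085 in Rego-resistant SNU449 cells, a ratio of 11.4. The solved values of ANKRD1, CCN2 and CCN1 matched the means of the tables to within 1.95%, 1.29% and 0.677%. The ratio was 3.85 for CCN2 (120 and 461) and 1.85 for CCN1 (1075 and 1995). WWTR1 went the other way, from 1023 to 627, as did YAP1, from 203 to 132. The fold of ANKRD1 is larger on this scale than on that of the library values, but the 2 are unlike measures. The solved counts are arithmetic means without the preparation correction, and the other fold comes from means of corrected log2 values.

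In SNU449-Axl- cells, where the question was whether resistance came with the same change when Axl was lacking, 0 of the 10 genes were called by limma, against 4.35% of all genes, and 0 had an unadjusted p under 0.05, against 18.6% of all genes. The fits without the replicate block and on the table of this pair also called 0. ANKRD1 differed by 0.28 (95% interval -0.69 to 1.25), CCN2 by -0.40 (-1.06 to 0.27) and CCN1 by 0.09 (-0.31 to 0.49). The within-number differences of ANKRD1 had mixed signs, -0.77, 1.15 and 0.45. WWTR1 was the 1 gene whose libraries did not overlap (log2 difference -0.40, adjusted p = 0.277), where 29.1% of all genes did not overlap. Its difference was close in size to that in SNU449 cells, and the interaction of WWTR1 was 0.06 (95% interval -0.51 to 0.64). FN1 (2.47, adjusted p = 0.000544) and the hepatocyte marker FGB (2.49, adjusted p = 0.000805) were higher in the same resistant cells. The other 4 mesenchymal markers lay between -0.66 and 0.38 and were not called. The hepatocyte markers AFP (-0.11) and APOA1 (0.23) were not called either. The part of FN1 and FGB in the result was not tested.

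**Figure D2:**
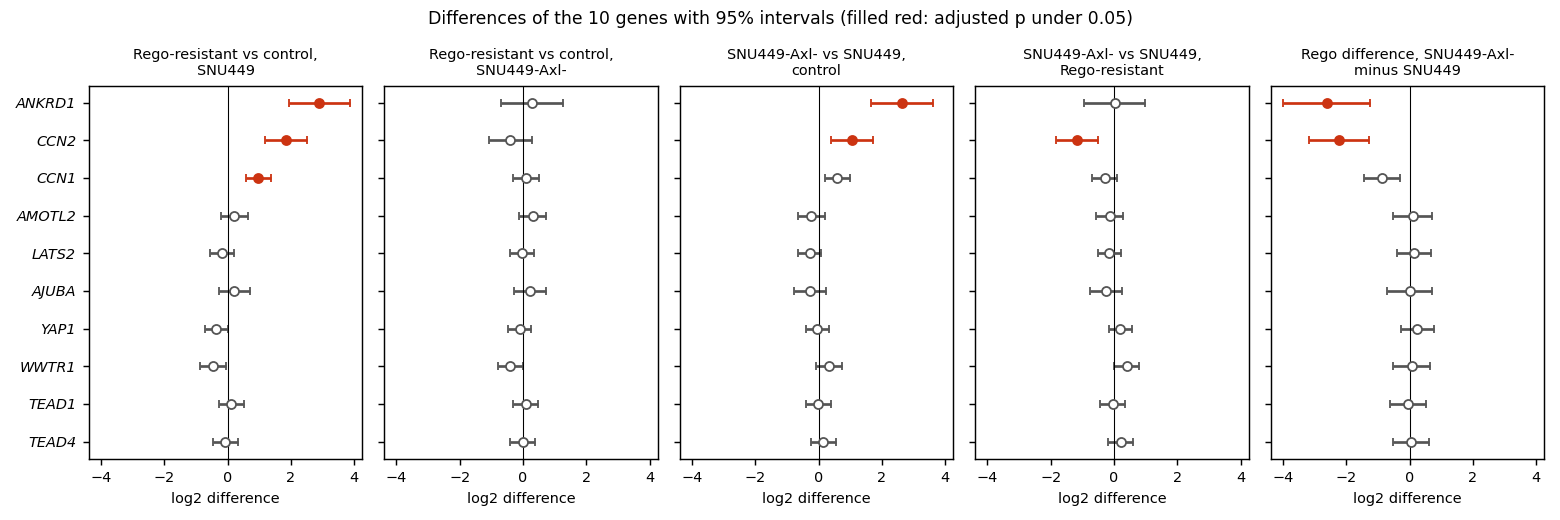
Log2 differences of the 10 genes with 95% intervals in the 4 comparisons between groups and, at the right, the difference of the Rego difference between backgrounds; filled red points are called. ANKRD1, CCN2 and CCN1 are called in SNU449 cells and lie near or below 0.28 in SNU449-Axl- cells, and the intervals of TEAD1, TEAD4, AMOTL2, LATS2 and AJUBA include 0 in all 5 panels.

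Whether the Rego difference itself differed between backgrounds was tested as an interaction, SNU449-Axl- minus SNU449. Of the 10 genes, 2 were called, both lower, where 5.87% of all genes were called and 2.95% were called lower. The interaction was -2.62 for ANKRD1 (SE 0.652, adjusted p = 0.0216) and -2.24 for CCN2 (SE 0.448, adjusted p = 0.00562). For CCN1 it was -0.88 (SE 0.269) and did not pass the threshold (adjusted p = 0.0615). Within the 3 replicate numbers the interaction was negative throughout for these genes, at -2.83, -0.27 and -4.76 for ANKRD1, -1.89, -1.77 and -3.05 for CCN2, and -0.66, -0.66 and -1.33 for CCN1. These values too rest on same-numbered libraries that the preparation correction ties together. The other 7 genes had interactions between -0.04 and 0.25, none called.

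The call of CCN2 held with any 1 library left out (-2.62 to -1.61). That of ANKRD1 was lost without SNU449-Axl- control library 1 (-2.27, adjusted p = 0.0536) or Rego-resistant SNU449-Axl- library 1 (-2.28, adjusted p = 0.0874), and its interaction was -1.88 without SNU449 control library 3 and -1.82 without Rego-resistant SNU449 library 3, both still called. With only the libraries numbered 1 and 2, a choice made after seeing the data, it was -1.55 (adjusted p = 0.0712).

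**Figure D3:**
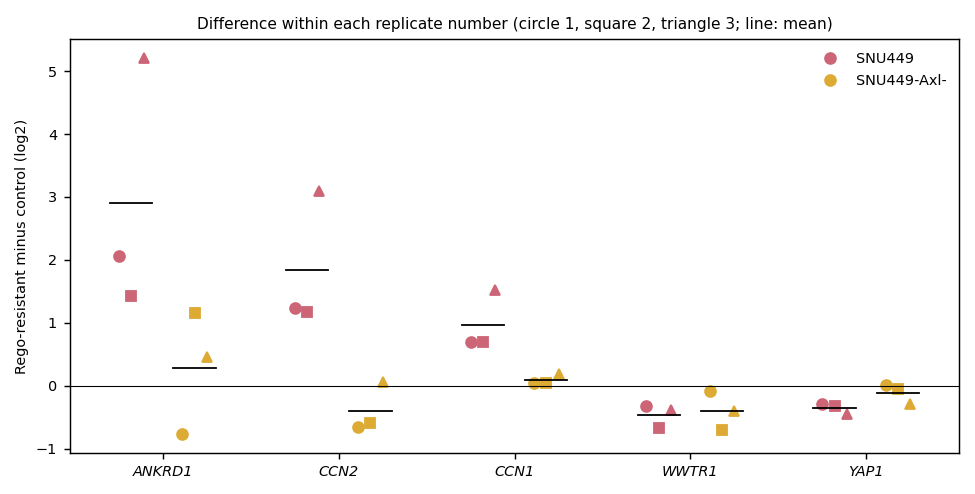
Rego-resistant minus control on the log2 scale within each replicate number, for the 3 target genes and the 2 coactivators, in SNU449 and SNU449-Axl- cells; black lines are means. In SNU449 cells all differences of ANKRD1, CCN2 and CCN1 are above 0 and those of number 3 (5.21, 3.10 and 1.52) stand apart, while all differences of WWTR1 and YAP1 are below 0.

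In control cells, loss of Axl was compared with its presence. Of the 10 genes, 2 were called, both higher in SNU449-Axl- cells, where 7.45% of all genes were called and 4.03% were called higher. ANKRD1 was 6.22-fold higher (log2 difference 2.64, SE 0.461, adjusted p = 0.00164) and CCN2 was 2.09-fold higher (1.06, SE 0.317, adjusted p = 0.0488). CCN1 differed by 0.59 (SE 0.190, adjusted p = 0.0672). These 3 genes were those whose libraries did not overlap, as 27.9% of all genes. This comparison shares the SNU449 control libraries with the first one, so that their differences are not independent. The ANKRD1 call held with any 1 library left out, with 1.90 (adjusted p = 0.00779) without SNU449 control library 3. The CCN2 call was lost in 8 of 12 cases. Without SNU449 control library 3 its log2 difference fell to 0.44 (adjusted p = 0.277). The other 7 were any 1 of the 3 SNU449-Axl- control libraries (1.01 to 1.16, adjusted p = 0.113 to 0.148), and library 1 or 2 of either resistant population (1.06, adjusted p = 0.0552 to 0.0683).

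YAP1 (-0.05, 95% interval -0.41 to 0.31), TEAD1 (-0.01, -0.41 to 0.39) and TEAD4 (0.15, -0.25 to 0.55) differed little between the control populations, and WWTR1 differed by 0.33 (-0.08 to 0.74). LATS2 (-0.28), AJUBA (-0.27) and AMOTL2 (-0.23) had negative differences that were not called. Among the markers, FN1 was lower in SNU449-Axl- control cells (log2 difference -2.25, adjusted p = 0.000867). The epithelial marker KRT8 (0.79, adjusted p = 0.0332) and the hepatocyte marker AFP (0.67, adjusted p = 0.0297) were higher. AFP values were near the floor, at 21 to 24 in SNU449 and 33 to 39 in SNU449-Axl- control cells. The hepatocyte markers FGB (1.06) and APOA1 (-0.18) and the epithelial marker KRT18 (0.28) were not called. The other 4 mesenchymal markers were not called, at -0.84 to 0.27. The part of these markers in the differences of the 10 genes was not tested.

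Between the resistant populations, 1 of the 10 genes was called, where 4.37% of all genes were called and 1.93% were called lower. CCN2 was 2.26-fold lower in SNU449-Axl- cells (log2 difference -1.17, SE 0.317, adjusted p = 0.0415). Its within-number differences were -1.14, -1.42 and -0.97. ANKRD1 (0.02, 95% interval -0.95 to 0.98) and CCN1 (-0.29, -0.69 to 0.11) were not called. The libraries did not overlap for 5 of the 10 genes, against 28% of all genes: CCN2, CCN1 and LATS2 were lower and WWTR1 (0.39, adjusted p = 0.293) and YAP1 (0.20, adjusted p = 0.611) were higher in SNU449-Axl- cells. The CCN2 call was lost without any 1 of the 3 Rego-resistant SNU449 libraries (-1.33 to -0.96, adjusted p = 0.0732 to 0.184), without library 1 or 2 of Rego-resistant SNU449-Axl- cells (-1.04 and -0.95, adjusted p = 0.202 and 0.250) and without library 2 or 3 of SNU449-Axl- control cells (-1.17, adjusted p = 0.0606 and 0.0531). The hepatocyte marker FGB (3.44, adjusted p = 2.90e-05), the epithelial marker KRT8 (1.58, adjusted p = 0.000248) and FN1 (2.46, adjusted p = 0.000489) were higher in the same SNU449-Axl- cells. FN1 was the 1 mesenchymal marker of 5 with a positive difference, the other 4 being at -0.38 to -0.05 and not called. The hepatocyte markers besides FGB were at 0.06 and 0.53 and the epithelial marker KRT18 at 0.25, none of them called. The part of these markers in this result was not tested.

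Spike-in RNAs gave a scale that does not assume equal totals. On it all genes moved by -0.06 and 0.12 in the Rego comparisons of SNU449 and SNU449-Axl- cells, by 0.13 and 0.30 in the Axl comparisons of control and Rego-resistant cells, and by 0.18 in the interaction. Relative to spike-ins CCN2 was lower in Rego-resistant SNU449-Axl- than SNU449 cells by -0.87 (adjusted p = 0.0705, not called), and WWTR1 was higher by 0.70 (adjusted p = 0.0272, called).

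The remaining pairs of groups differ in both Axl and resistance. Rego-resistant SNU449-Axl- cells had more ANKRD1 (2.91, adjusted p = 0.000452) and CCN1 (0.68, adjusted p = 0.0351) than SNU449 control cells, 2 of 10 genes called against 7.11% of all, 4.38% of all being called higher. Between Rego-resistant SNU449 and SNU449-Axl- control cells 1 of 10 was called against 5.59% of all and 2.91% of all called lower, with WWTR1 lower in the former (-0.79, adjusted p = 0.0224).

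Of 30 other Hippo pathway genes and TEAD cofactors, 27 were tested. Between Rego-resistant and control cells 0 were called by limma, against 7.81% of all genes in SNU449 and 4.35% in SNU449-Axl- cells. At an unadjusted p under 0.05 there were 0 and 6 in the same order, against 21.3% and 18.6% of all genes. The median log2 differences of the 27 genes were 0.03 and 0.0094, against -0.00010 and 0.0066 over all genes. VGLL3, a TEAD cofactor, was the 1 gene of this list called between control populations, where 7.45% of all genes were called. Its values were 34, 33 and 21 in SNU449 control and 131, 156 and 157 in SNU449-Axl- control cells (log2 difference 2.32, SE 0.222, adjusted p = 3.16e-06). It was also higher in resistant SNU449-Axl- than resistant SNU449 cells (2.04, adjusted p = 2.30e-05), where TEAD3, a further TEAD family member, was lower (-0.80, adjusted p = 0.0267). VGLL3 and TEAD3 were the 2 genes of the list called between resistant populations, where 4.37% of all genes were called.

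Of 21 other YAP/TAZ target genes, all 21 were tested and 6 were called between Rego-resistant and control SNU449 cells, 5 higher and 1 lower, where 7.81% of all genes were called. The highest were EDN1, which encodes the peptide endothelin (1.37, adjusted p = 0.000321), FJX1 (1.32, adjusted p = 0.0054), NT5E, which encodes the ectonucleotidase CD73 (1.26, adjusted p = 0.00494), and GADD45A, a stress-response gene (1.16, adjusted p = 0.0382). The GADD45A libraries overlapped, at 113 to 248 in control and 227 to 600 in resistant cells, and its difference in SNU449-Axl- cells was 0.82, not called. NUAK2 was also called higher (0.98, adjusted p = 0.0146), and it differed by 0.71 in SNU449-Axl- cells, not called. The 1 gene called lower in SNU449 cells was CCDC80 (-0.76, adjusted p = 0.0313). In SNU449-Axl- cells 4 of 21 were called, against 4.35% of all genes. The 1 that was higher was IGFBP3 (0.99, adjusted p = 0.0279), which encodes a binding protein of insulin-like growth factors. The 3 that were lower were THBS1, the gene of the matrix protein thrombospondin (-1.16), FOXF2 (-1.05) and CCDC80 (-0.94). The median over the list was 0.27 in SNU449 and -0.09 in SNU449-Axl- cells. The interaction was called for 3 of the 21, against 5.87% of all genes, and all 3 were lower: NT5E (-2.17, adjusted p = 0.00165), THBS1 (-1.35, adjusted p = 0.0126) and EDN1 (-1.03, adjusted p = 0.0421).

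Between control populations 2 of the 21 were called, against 7.45% of all genes, NT5E (2.07) and THBS1 (1.32), both higher in SNU449-Axl- cells. Between resistant populations 3 were called, against 4.37% of all genes. IGFBP3 (1.78) and DOCK5 (0.96) were higher and ARHGEF17 (-0.81) was lower, while the median over the list was -0.31 and 3 of 21 differences were positive.

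Genes of the actin cytoskeleton that respond to SRF and MRTF share several targets and upstream cues with YAP. Of 15 such genes, 3 were called between Rego-resistant and control SNU449 cells, where 7.81% of all genes were called and 4.31% called higher. All 3 were higher: TAGLN, the gene of transgelin (2.90, adjusted p = 0.00844), CALD1, the gene of caldesmon (1.50, adjusted p = 0.0229), and the tropomyosin gene TPM1 (0.75, adjusted p = 0.0372). Of the 15 differences 11 were positive, and the lowest was that of the calponin gene CNN1 (-0.89, not called). TAGLN values were 111, 205 and 21 in control and 590, 330 and 1081 in resistant SNU449 cells. Its control library 3 was the lowest and its resistant library 3 the highest, the same libraries as for ANKRD1. Because the preparation correction ties same-numbered libraries, these 2 extremes are not independent of each other. In SNU449-Axl- cells 2 of 15 were called, against 4.35% of all genes. TPM1 (-0.85, adjusted p = 0.0311) and the gamma-actin gene ACTG1 (-0.78, adjusted p = 0.0156) were lower in resistant than in control cells. The median difference was 0.31 in SNU449 and -0.54 in SNU449-Axl- cells. The interaction was called for 4 of 15, where 5.87% of all genes were called and 2.95% called lower, and all 4 were lower (TPM1 -1.60, CNN2 -1.30, FLNA -1.24 and ACTG1 -1.10), with a median of -1.10 against 0.01 over all genes.

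Between control populations 2 of the 15 were called, against 7.45% of all genes. TPM1 was higher (0.95, adjusted p = 0.00972) and CNN1, a smooth muscle calponin gene, lower (-1.53, adjusted p = 0.00309) in SNU449-Axl- cells. Between resistant populations 2 were called, against 4.37% of all genes. CALD1 (-1.63, adjusted p = 0.0224) and the myosin light chain gene MYL9 (-1.47, adjusted p = 0.0211) were lower in SNU449-Axl- cells.

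**Figure D4:**
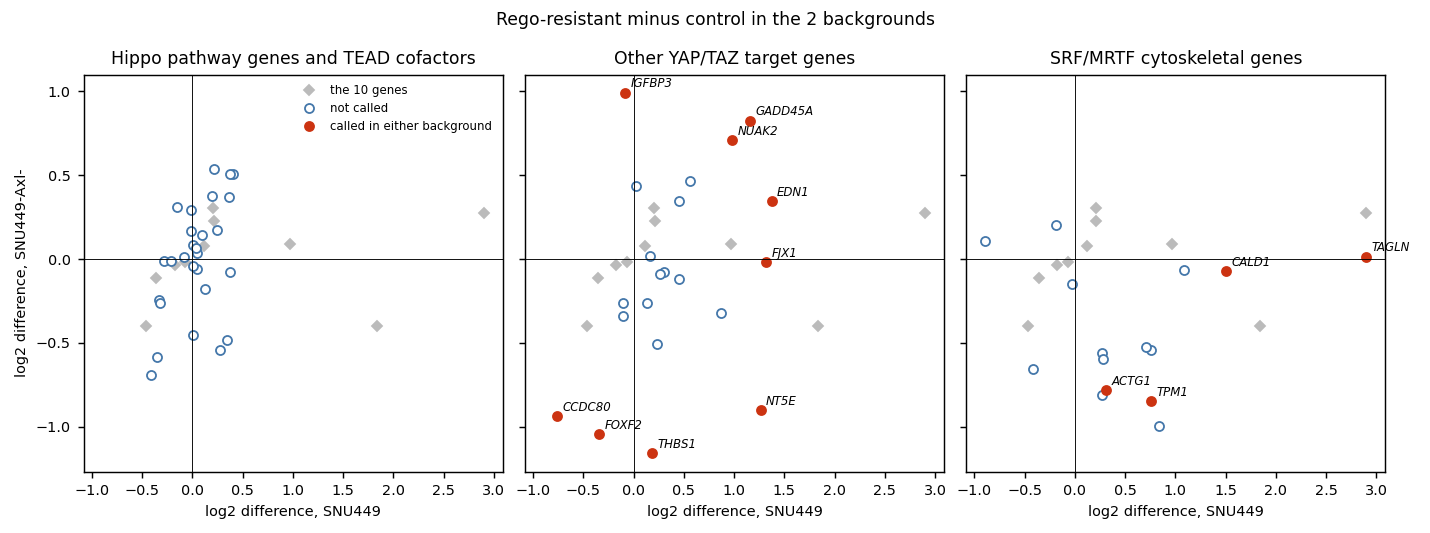
Log2 difference between Rego-resistant and control cells in SNU449 (horizontal) and SNU449-Axl- cells (vertical) for 3 gene lists; filled red points are called in at least 1 background and grey diamonds are the 10 genes. None of the 27 Hippo genes is called, TAGLN lies at 2.90 in SNU449 beside ANKRD1, and THBS1 lies at -1.16 in SNU449-Axl- cells.

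Over the 12 libraries, which include the group differences, the levels of CCN1 and ANKRD1 had a Pearson r of 0.913, those of CCN1 and CCN2 0.912 and those of CCN2 and ANKRD1 0.755. After removal of the group means the values were 0.832, 0.924 and 0.690. TEAD1 and CCN2 had r = 0.623 over all libraries and 0.875 without the group means, and YAP1 and WWTR1 had 0.697 and 0.03. YAP1 had negative values with CCN1 (r = -0.816), CCN2 (-0.785), AMOTL2 (-0.694), AJUBA (-0.647) and ANKRD1 (-0.622), but not with LATS2 (0.187). Without the group means these were -0.535, -0.587, -0.791, -0.848, -0.530 and -0.026. WWTR1 and AMOTL2 had -0.730 and -0.458. The points share populations and preparations, and these values are descriptions. The genes whose levels were most like those of ANKRD1 over the 12 libraries, of 8189 with a mean normalized count above 50, were LSM14A (r = 0.966), SIGIRR (0.944) and SERTAD2 (0.944).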

How the data were processed

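RNA of 12 libraries (4 groups, 3 technical replicates each) was sequenced by QuantSeq. Per the labels and methods, the authors trimmed reads with cutadapt 4.0, aligned them to GRCh38 and spike-in sequences with STAR 2.5.3a, counted reads per gene, dropped genes with few reads and ran DESeq2 with a term for the preparation date. The library values are scores that the authors made by variance stabilization and removal of the preparation effect, deposited as rounded powers of 2. The mean normalized count of a gene is a signal that the authors averaged over the libraries of a table. Their fold changes, p-values and group averages were not used.

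Here log2(value + 1) was fitted with limma 3.58.1 in R 4.3.3 (eBayes with trend) over 15601 genes, with group and replicate number as terms. A gene was called when its p, adjusted over these genes after Benjamini and Hochberg, was under 0.05, and no filter was applied. Depth per library is unknown.

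The replicate block was taken because the deposited values follow the number: the mean deviation over libraries of a number had a median size of 0.00053, against 0.123 for a library from its group. Same-numbered libraries correlated between -0.542 and 0.03 in their deviations, as removal of a shared effect leaves them. That the number stands for the preparation was read from the values, since the dates were not given in the sources used here.

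The 10 genes, the lists and the rule for named genes (all 10 genes, AXL, and at most 4 called genes per list and comparison) were chosen with earlier results of these data known. CCDC80 and NUAK2 in SNU449 cells and some genes that were not called are named beyond that rule, as limits of the results. Group means of normalized counts were solved by least squares from the means of 8 tables, with a median error of 0.393%. Fits were checked on simulated data. The alternatives were no block, the table of each pair, the other 12-library table, other pseudocounts, a minimum mean count of 50, upper-quartile and spike-in scaling, no variance trend, each library left out, and, added after seeing the data, only the libraries numbered 1 and 2.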

Additional observations from a re-analysis of the deposited data

Results flagged for a closer look

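The Rego difference of 2 of the 10 genes differed between SNU449-Axl- and SNU449 cells by the interaction term. It was smaller in SNU449-Axl- cells by -2.62 on the log2 scale for ANKRD1 (limma adjusted p = 0.0216) and by -2.24 for CCN2 (limma adjusted p = 0.00562), negative in 3 of 3 replicate numbers for each gene. The libraries of a number are tied together by the preparation correction. The CCN2 call held with any 1 library left out. The ANKRD1 call was lost without SNU449-Axl- control library 1 (-2.27, adjusted p = 0.0536), without Rego-resistant SNU449-Axl- library 1 (-2.28, adjusted p = 0.0874) and with only the libraries numbered 1 and 2, chosen after seeing the data (-1.55, adjusted p = 0.0712). Without Rego-resistant SNU449 library 3 it was -1.82 and still called.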

How the results depend on the processing

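With 3, 0, 2, 1 and 2 of the 10 genes called for Rego resistance in SNU449, Rego resistance in SNU449-Axl-, Axl loss in control cells, Axl loss in Rego-resistant cells and the interaction, both Rego counts were the same under every alternative run. For Axl loss in control cells the count was 1 on the table of the pair (CCN2 lost, 0.92, adjusted p = 0.0837), 1 with a mean count of at least 50 (CCN2 adjusted p = 0.0617) and 1 with only the libraries numbered 1 and 2 (CCN2 0.55, adjusted p = 0.139). For Axl loss in Rego-resistant cells it was 0 with a mean count of at least 50 (CCN2 adjusted p = 0.0578), and for the interaction it was 1 with the libraries numbered 1 and 2. Leaving out 1 library at a time gave counts of 3 to 3, 0 to 0, 1 to 3, 0 to 1 and 1 to 2 in the same order. In all fits of this kind the left-out library had taken part in the preparation correction of the rest. The causes were not tested.

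Without the replicate block the counts were 3, 0, 3, 1 and 3, with CCN1 added for Axl loss in control cells (adjusted p = 0.0193) and for the interaction (adjusted p = 0.0165). Over all genes the calls rose from 1219, 678, 1163, 682 and 916 with the block to 2175, 1552, 2182, 1503 and 1826 without it. They were 746, 491, 787, 450 and 652 with a mean count of at least 50, where 8189 genes were tested. The tables of the pairs gave 603, 818, 603 and 1160 for the 4 comparisons between groups, and 468 genes were called for Axl loss in Rego-resistant cells with the libraries numbered 1 and 2. Left-out libraries gave 740 to 1299, 205 to 891, 540 to 1275, 219 to 826 and 523 to 922. Spike-in centring raised the calls for Axl loss in Rego-resistant cells to 2326 and called CCN1 for Axl loss in control cells (0.72, adjusted p = 0.0383), as did leaving out Rego-resistant SNU449 library 3 (adjusted p = 0.0499).

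Signs turned only for differences that were not called. With spike-in centring these were, for Axl loss in Rego-resistant cells, AJUBA (0.041), AMOTL2 (0.17), CCN1 (0.012), LATS2 (0.16) and TEAD1 (0.26), for Axl loss in control cells TEAD1 (0.12) and YAP1 (0.078), for Rego in SNU449-Axl- LATS2 (0.083), TEAD4 (0.10) and YAP1 (0.0079), and for the interaction TEAD1 (0.14). With the libraries numbered 1 and 2 they were AJUBA for Rego in SNU449-Axl- (-0.0025) and SNU449 (-0.20), LATS2 for Rego in SNU449-Axl- (0.016), TEAD1 for Rego in SNU449 (-0.091), and the interactions of AMOTL2 (-0.020), TEAD1 (0.20) and TEAD4 (-0.0025). With 1 library left out, ranges that crossed 0 were, for Axl loss in Rego-resistant cells, AJUBA (-0.45 to 0.0057), AMOTL2 (-0.30 to 0.0053), ANKRD1 (-0.51 to 0.82) and TEAD1 (-0.12 to 0.035). They were -0.23 to 0.11 for TEAD1 under Axl loss in control cells, and for Rego in SNU449 AJUBA (-0.068 to 0.46), TEAD1 (-0.11 to 0.23) and TEAD4 (-0.19 to 0.11). For Rego in SNU449-Axl- they were ANKRD1 (-0.044 to 0.63), LATS2 (-0.11 to 0.063), TEAD1 (-0.013 to 0.19) and TEAD4 (-0.11 to 0.10), and for the interaction AJUBA (-0.23 to 0.29), AMOTL2 (-0.093 to 0.31), TEAD1 (-0.15 to 0.19), TEAD4 (-0.12 to 0.17) and WWTR1 (-0.089 to 0.23). The depth of a library is unknown, so that a limit from depth could not be given.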
